A study of Xenopus laevis with 14 samples.

Results

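The brains of *Xenopus laevis* tadpoles edited in *eef1a2* were compared with the brains of control tadpoles by bulk RNA-seq. The comparison used 10 of the 14 libraries of the series, 5 *eef1a2* CRISPant and 5 control, assigned to groups by their labels, and 20682 of the 26807 genes in the count matrix were tested after a filter on low counts. A CRISPant is a founder animal grown from an embryo injected with Cas9 and a guide RNA, and it is a mosaic of edited and unedited cells. The *eef1a2* embryos received nuclear-targeted Cas9 with a guide producing truncating, loss-of-function edits, and the control embryos received the same Cas9 with a scrambled guide that has no target. All embryos came from 2 females and shared a wildtype background. They were raised to stage 47, and each library held the pooled whole brains of 6 tadpoles. A library is thus an average over animals and cell types, and fewer cells of a type cannot be told apart from less RNA per cell. A further group of 4 libraries from *ap3b2* CRISPants, made against the same controls, is compared at the end. Apart from that, it entered only the scaling of the expression values printed, not the tests against controls. The 10 libraries held between 39016087 and 46745977 counted read pairs.

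eEF1A is the factor that carries aminoacyl-tRNA to the ribosome during elongation. Vertebrates have a widely expressed form, eEF1A1, and eEF1A2, which takes over in mature neurons and muscle. In humans, *EEF1A2* variants cause developmental and epileptic encephalopathy (DEE) type 33, an early-onset epilepsy with developmental delay. *X. laevis* is allotetraploid, so that many genes are present as a pair of homeologs named .L and .S after the longer and shorter chromosome of each set. Both are given for many of the genes below. Where a single homeolog is named, the other may still have been measured.

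The targeted gene was examined first. *eef1a2.L* (chromosome 9_10L, 17547318 to 17560489, v10.1 assembly) was measured at 137, 155, 155, 158 and 151 CPM (counts scaled to library size) in the controls and 159, 142, 172, 134 and 123 CPM in the CRISPants. *eef1a2.S* (chromosome 9_10S, 16774554 to 16789563) was measured at 372, 391, 397, 444 and 416 CPM in the controls and 438, 387, 429, 396 and 369 CPM in the CRISPants. For either homeolog the groups overlapped, and the log2 fold changes of -0.06 ± 0.08 (SE, FDR = 0.564) for L and -0.01 ± 0.06 (FDR = 0.885) for S did not pass the test. A count over the whole gene does not read small insertions or deletions, so these values do not check the editing, and the homeolog targeted by the guide is not given in the sources used here.

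Several other elongation factor genes rose slightly. Of 24 elongation factor genes tested, 9 were higher and 2 lower at a false discovery rate (FDR) below 0.05, none by more than 2-fold, with a median log2 fold change of 0.18 against 0.03 over all genes. The list thus had 37.5% higher and 8.33% lower, against 18.8% and 21.4% of all genes. Its median span on the chromosome was 13170 bases. Among all genes spanning 9850 to 13681 bases, 28.7% were higher and the median was 0.12. Whether the list rose beyond other genes of that span was not tested. The subunits of the eEF1B exchange factor, which recharges eEF1A with GTP, rose: *eef1b2.L* by 0.51 ± 0.10 on the log2 scale (FDR = 0.0078), with the 2 homeologs of *eef1d* at 0.30 and 0.30 and those of *eef1g* at 0.33 and 0.25. The paralogue *eef1a1.S* rose by 0.22 (FDR = 0.0347) and *eef1a1.L* had 0.22 (FDR = 0.0519). The genes that fell were *eef2k.L*, the kinase that inhibits the translocation factor eEF2, and *eefsec.S*, the selenocysteine elongation factor. *eef2k.L* was at 67.5, 62, 63.3, 52.1 and 57.9 CPM in the controls and 30.1, 50.2, 16.7, 33 and 25.6 CPM in the CRISPants. All 5 CRISPant libraries lay below all 5 controls (log2 fold change -0.97 ± 0.22, FDR = 0.00994), while *eef2k.S* had -0.47 (FDR = 0.0541). *eefsec.S* had -0.83 ± 0.20 (FDR = 0.0105), and *eef2* itself had 0.05 for L and 0.04 for S, neither passing.

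Across the transcriptome, large changes were almost all decreases. Of 20682 genes tested, 1083 were lower (5.24%) and 18 higher (0.087%) in *eef1a2* CRISPants at FDR below 0.05 with a fold change above 2, the rule for a called gene below. The called genes had a median 2.35-fold decrease or 2.19-fold increase. The fold rule applies to the estimate: when each gene was tested against a 2-fold change itself (edgeR glmTreat), 0 passed at FDR below 0.05 and 375 had an unadjusted p below 0.05. With no requirement on fold change, 4425 genes were lower (21.4%) and 3878 higher (18.8%), so that 53.3% of these genes were lower. That share was 68.6% when libraries were scaled by their size alone, 36.7% within replicates 1 to 3 and 85.7% within replicates 4 and 5. The 5 CRISPant libraries all lay below the 5 controls for 2069 genes (10%) and all above for 1879 (9.09%), and this held for 628 of the 1083 called lower and 7 of the 18 called higher. The smallest FDR was 0.0078, shared by 836 genes.

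The groups separated along the first principal component, but the libraries were not equally far apart. PC1 held 49.5% of the variance, and the controls had scores of -97.1, -104, -106.7, -30.89 and -79.07 against 95.65, -11.5, 185.1, 46.13 and 102.5 in the CRISPants. The groups did not overlap, although CRISPant replicate 2 lay nearest the controls and control replicate 4 nearest the CRISPants (difference of means 167.1, two-sided exact permutation test p = 0.00794, the smallest this design allows). Set against the control mean, the called lower genes showed a median decrease of 2.43-, 1.37-, 3.95-, 2.12- and 2.37-fold in the 5 CRISPant libraries, and of 0.943-, 0.911-, 0.9-, 1.29- and 1-fold in the controls (a value under 1 being higher than the control mean). Replicate 3 thus showed the deepest decrease and replicate 2 the shallowest. Without CRISPant replicate 3 the called lower genes numbered 706, and without CRISPant replicate 2 they numbered 1716. PC2 (18.0%) did not separate the groups (p = 0.762 by the same exact test) but set replicates 4 and 5 of both groups apart from replicates 1 to 3. No label explains that split. Within replicates 1 to 3 there were 406 called lower and 58 higher, and within replicates 4 and 5 there were 811 and 26.

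**Figure D1:**
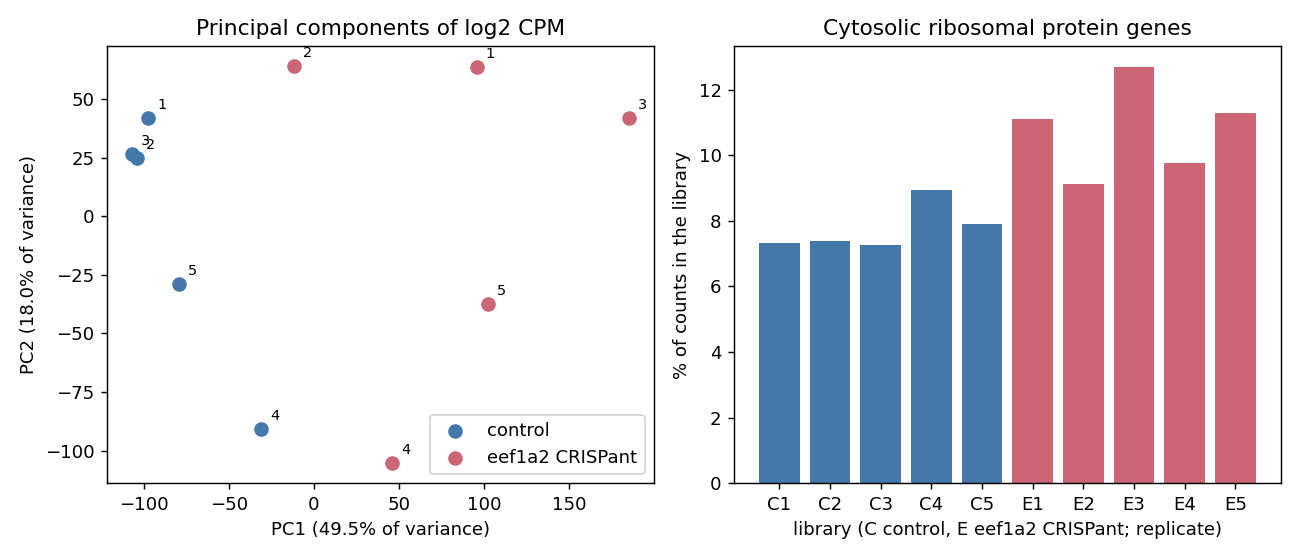
Left, scores of the 10 libraries on the first 2 principal components of log2 CPM, with replicate numbers beside the points. Right, share of each library's counts that fell on cytosolic ribosomal protein genes (bars, C controls, E *eef1a2* CRISPants). PC1 separates the groups, replicates 4 and 5 lie low on PC2 in both, and the share is 7.27 to 8.94% in controls and 9.12 to 12.7% in CRISPants.

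The change in expression followed gene length on the chromosome. Genes called lower had a median genomic span of 53528 bases, genes that did not pass had 23765 bases, and genes higher at FDR alone had 12767 bases. From the shortest to the longest span decile (the genes ranked by span and cut into 10 equal sets), the median log2 fold change went from 0.22 to -0.19, the share called lower from 1.73% to 11.8%, and the share higher at FDR from 39.1% to 3.86%. Across genes, which are not independent replicates, Spearman's rho of fold change with span was -0.377. Within single libraries, the rho of the log ratio to the control mean was -0.204 to -0.407 in the 5 CRISPants and -0.433 in control replicate 4, and it was 0.0483 to 0.277 in the other 4 controls. With the trend on span removed from each library, 947 genes were called lower and 19 higher. Genes without a span of their own took that of their homeolog, and genes with neither were left unadjusted. A span of their own was known for 77% of the genes called lower and 84.3% of those that did not pass.

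**Figure D2:**
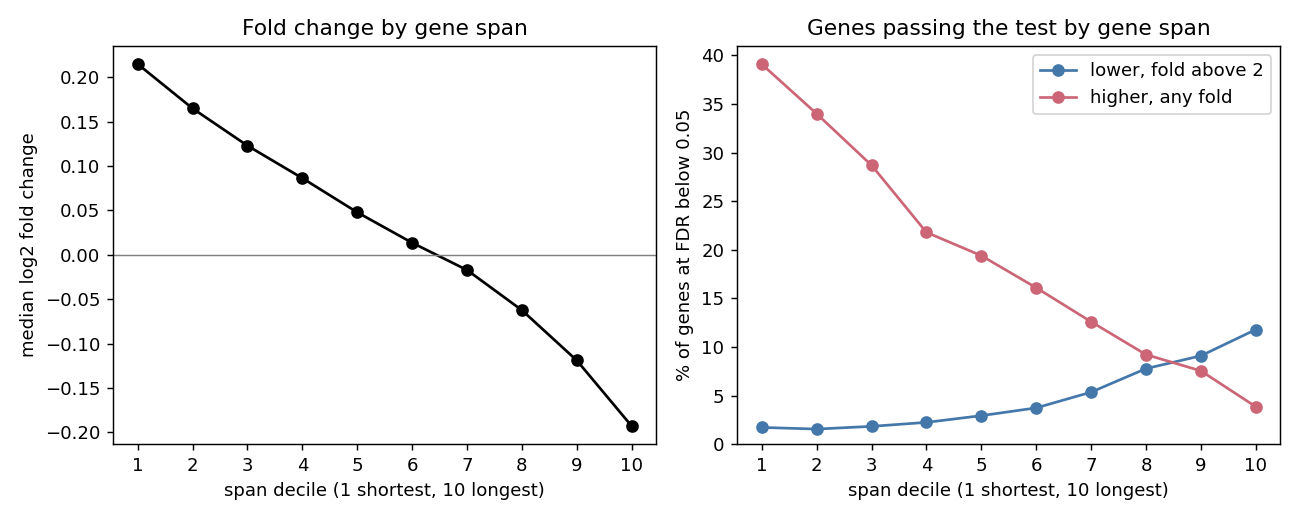
Genes were cut into 10 equal sets by genomic span, from the shortest (1) to the longest (10). Left, median log2 fold change of *eef1a2* CRISPant against control per set. Right, the percentage of genes called lower with a fold above 2 (blue) and higher at any fold (red), both at FDR below 0.05. The median falls from 0.22 to -0.19 and the share called lower rises from 1.73% to 11.8%.

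Homeologs largely moved together. Of 11807 L genes tested 5% were called lower, as were 5.56% of 8873 S genes. Both homeologs were tested in 7620 pairs, and both were called lower in 203 of them and a single homeolog in 521. Of the 927 called lower genes with a tested homeolog, the homeolog was also called in 406 (43.8%), had a negative fold change in 869 (93.7%), and was higher at FDR in 9. The Pearson correlation of fold changes across pairs was 0.643 (Spearman 0.639), given as a description because near-identical homeologs can share reads. In 124 pairs the homeologs passed the FDR threshold in opposite directions.

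**Figure D3:**
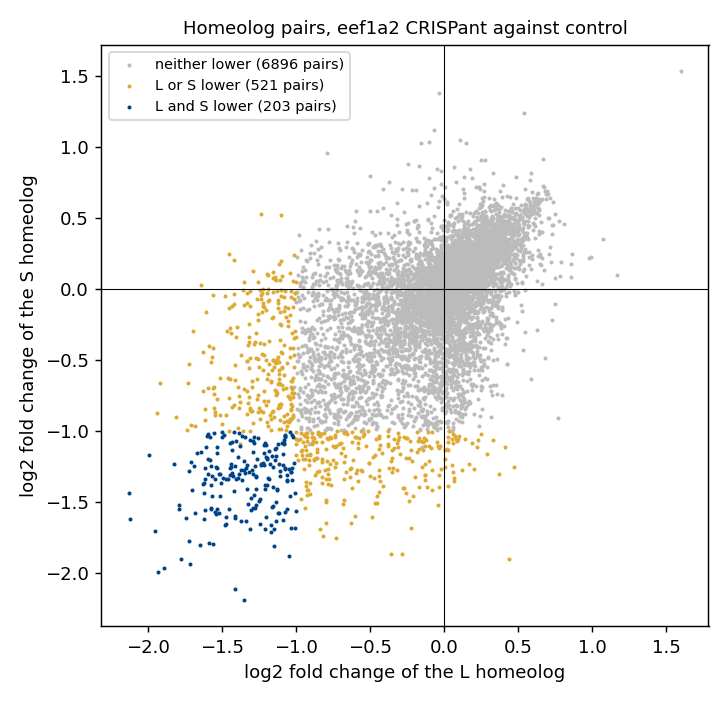
Each point is a homeolog pair with both members tested (7620 pairs), with the log2 fold change of the L gene on the x axis and of the S gene on the y axis, *eef1a2* CRISPant against control. Blue marks the 203 pairs with both called lower, yellow the 521 with a single gene called lower, and grey the rest. Most coloured points lie below zero on both axes.

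The 12 largest decreases, among genes whose groups did not overlap, were mostly in receptors, transporters and transcription factors. The largest was *kdrl.L* (chromosome 8L, 37763599 to 37889713), a receptor for vascular endothelial growth factor on blood vessels, at 9.22, 10.8, 8.85, 8.03 and 11.7 CPM in controls and 1.79, 2.43, 0.821, 4.28 and 1.24 CPM in CRISPants. Every CRISPant library lay below every control (log2 fold change -2.21 ± 0.35, FDR = 0.0078). *tgfbr3.S*, which encodes the TGF-β co-receptor betaglycan, was at 4.74, 6.38, 3.91, 3.58 and 5.59 CPM in controls and 0.773, 1.29, 0.231, 2.35 and 0.668 CPM in CRISPants (-2.19 ± 0.43), and its homeolog was also called (-1.35 ± 0.27). *insr.S*, the insulin receptor, was at 8.17, 8.21, 6.32, 3.64 and 7.32 CPM in controls and 0.72, 3.17, 0.334, 1.65 and 1.91 CPM in CRISPants (-2.11 ± 0.45). *insr.L* was also called (-1.41 ± 0.39), but there the highest CRISPant library overlapped the lowest control. *npr3.L*, the clearance receptor for natriuretic peptides, had -2.07 ± 0.31.

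Transporters for neurotransmitters were among these genes. The serotonin transporter *slc6a4.L* was at 11.7, 16, 14.8, 11.1 and 14.9 CPM in controls and 3.57, 7.55, 0.667, 2.76 and 1.22 CPM in CRISPants, with all CRISPant libraries below the controls (-2.13 ± 0.48, FDR = 0.00925). Its homeolog behaved likewise (-1.44 ± 0.41, FDR = 0.0183). *slc6a5.L*, the glycine transporter GlyT2 of inhibitory nerve endings, was at 16.3, 23.7, 24.9, 18.4 and 22.7 CPM in controls and 3.89, 9.05, 2.72, 8.40 and 3.72 CPM in CRISPants (-1.94 ± 0.31). *slc6a5.S* fell at FDR without reaching 2-fold (-0.87 ± 0.22).

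The transcription factors were *bach2*, a BTB-domain leucine zipper repressor, and *klf12*, a Krüppel-like repressor. *bach2.L* was at 11.8, 11.8, 10.9, 6.40 and 11.5 CPM in controls and 1.20, 6, 0.385, 2.46 and 2.03 CPM in CRISPants. Control replicate 4 and CRISPant replicate 2 almost met, but the groups stayed apart (-2.12 ± 0.50, with -1.62 ± 0.42 for *bach2.S*). *klf12.S* had -1.97 ± 0.45 and *klf12.L* -1.89 ± 0.47, the latter with overlapping groups. *psd3*, an exchange factor for the small GTPase ARF6, fell in S (-2.0 ± 0.38) and in L (-1.93 ± 0.41).

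*gprin1*, a G-protein-binding inducer of neurite outgrowth, was among the pairs with homeologs in opposite directions. *gprin1.S* was at 20.6, 20.6, 26.4, 11.6 and 17.8 CPM in controls and 3.33, 11.1, 1.54, 5.59 and 4.44 CPM in CRISPants (-1.90 ± 0.41, FDR = 0.00857). *gprin1.L* was at 82.4, 77.6, 73.3, 65.4 and 65 CPM in controls and 109.8, 94.9, 118, 72.9 and 102 CPM in CRISPants. The L gene rose at FDR (0.44 ± 0.11, FDR = 0.0135) with overlapping groups, while S fell with none.

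**Figure D4:**
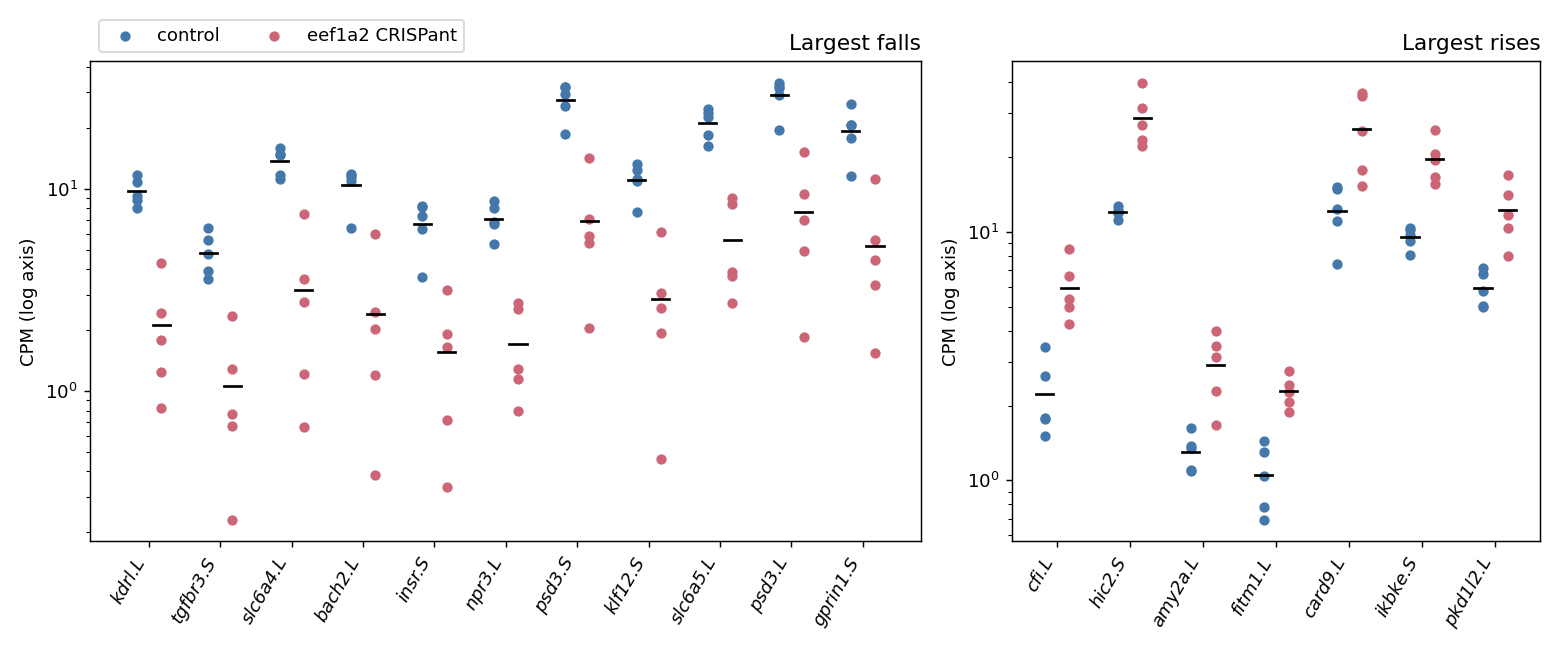
CPM per library (log axis) in the 5 controls (blue) and 5 *eef1a2* CRISPants (red) for 11 of the 12 largest falls (left) and the 7 rises (right) that met the naming rule, with black lines at group means. In none of these genes do the groups overlap. CRISPant replicate 3 is the lowest point for most falls, as for *bach2.L* at 0.385 CPM.

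Only 7 called rises had groups that did not overlap and enough counts. *cfi.L*, complement factor I, a protease that shuts down complement, was at 1.77, 1.51, 1.79, 2.63 and 3.45 CPM in controls and 6.61, 5.38, 8.49, 4.25 and 4.99 CPM in CRISPants (1.40 ± 0.25, FDR = 0.0078). *hic2.S*, a BTB zinc finger repressor, was at 12, 11.9, 12.3, 12.7 and 11.2 CPM in controls and 31.5, 23.4, 39.7, 22.1 and 26.8 CPM in CRISPants (1.24 ± 0.14). Control values of *hic2.S* were tightly grouped, and *hic2.L* also rose, by 0.54 ± 0.09, with all CRISPant libraries above the controls. A pair of genes of innate immune signalling rose, *card9.L*, an adaptor of pattern recognition receptors (1.08 ± 0.26), and *ikbke.S*, an IκB-related kinase (1.03 ± 0.13). *ikbke.L* did not pass (0.15, FDR = 0.428). The others were *amy2a.L*, an amylase (1.14 ± 0.23), *fitm1.L*, a lipid droplet protein (1.10 ± 0.21), and *pkd1l2.L*, a polycystin-like protein (1.02 ± 0.19). Genes of innate immunity as a list did not share a direction. Of 137 interferon and innate immunity genes tested, 22 were lower and 20 higher at FDR, with 4 called lower and 2 called higher (median 0.04). The share called lower was 2.92%, against 5.24% of all genes.

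The remaining 11 called rises had overlapping groups. The keratin *krt12.5* had the largest values in both homeologs (1.60 ± 0.39 for L and 1.54 ± 0.46 for S). *krt12.5.L* was at 1.54, 1.95, 2.27, 2.38 and 3.78 CPM in controls and 5.95, 14.5, 4.93, 8.13 and 2.93 CPM in CRISPants, so that replicate 2 stood far above the other CRISPants and replicate 5 lay within the controls. *cps1.S*, carbamoyl phosphate synthetase of the urea cycle, had 1.48 ± 0.29, and the immediate early gene *fosb.L* had 1.37 ± 0.38. Of 42 immediate early genes tested, 8 were lower and 6 higher at FDR (median -0.21).

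Genes were also read as 79 lists of families, pathways and cell type markers. These lists share members and include both homeologs. They are described against all genes tested (21.4% lower and 18.8% higher at FDR, 5.24% called lower, median log2 fold change 0.03). Among the lists of inhibitory neurotransmission, most GABA-A receptor and glycine genes were lower. GABA-A receptor subunits form the chloride channels through which GABA inhibits neurons. Of 19 tested, 13 were lower at FDR, 9 of them by more than 2-fold, and none was higher (median -0.94). Within replicates 1 to 3 alone 4 were lower at FDR, all called, and within replicates 4 and 5 alone 13 were lower, 7 of them called. The GABA-A list had 47.4% called lower, at a median span of 83400 bases. All genes of that span decile (60506 to 98998 bases) had 9.1% and a median of -0.12. With the span trend removed, 12 GABA-A genes were lower at FDR and 7 were called (median -0.80). *gabrb2.L* was at 32, 31.8, 31.5, 18.6 and 28.2 CPM in controls and 7.20, 16.3, 2.41, 9.52 and 7.85 CPM in CRISPants. The groups stayed apart (-1.72 ± 0.37, FDR = 0.0084), while in *gabrb2.S* they overlapped (-1.28 ± 0.31). *gabra2.L* and both *gabrb1* homeologs each had -1.62 (SE 0.31 for *gabra2.L*). Of 11 genes for GABA synthesis, breakdown and transport, 4 were lower and none higher at FDR, 2 of them called (median -0.15), including *gad2.L*, which makes GABA (-1.31 ± 0.34), with overlapping groups. Of 3 GABA-B receptor genes 1 was lower and 1 higher (median 0.12). Of 13 glycine receptor and transporter genes, 8 were lower and 3 higher at FDR, 4 by more than 2-fold (median -0.22). They included the receptor subunit *glra3.L* (-1.19 ± 0.24) and the glial transporter GlyT1 in both forms, *slc6a9.S* (-1.69 ± 0.27) and *slc6a9.L* (-1.15 ± 0.32). The glycine list had 30.8% called lower at a median span of 83700 bases, in the same span decile as the GABA-A list.

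In glutamate signalling, the metabotropic and NMDA receptor lists held mostly lower genes. Of 12 metabotropic glutamate receptors, 10 were lower at FDR and 5 by more than 2-fold (median -0.88), against 4 lower with 1 called within replicates 1 to 3 and 6 lower with 3 called within replicates 4 and 5. *grm5.L* was at 49.7, 51.2, 50, 30 and 41.6 CPM in controls and 9.76, 27.2, 4.46, 20 and 15.8 CPM in CRISPants, with no overlap (-1.53 ± 0.37), and *grm5.S* fell too (-1.55 ± 0.33). *grm3.L* (-1.25 ± 0.26) was called too. Among NMDA receptor subunits, 9 of 12 were lower at FDR but only *grin2b.L* (-1.42 ± 0.30) and *grin2d.S* (-1.13 ± 0.30) were called. These lists hold long genes, with median spans of 199200 bases (metabotropic) and 111100 bases (NMDA). They had 41.7% and 16.7% called lower, against 11.8% and a median of -0.19 in the longest span decile of all genes. With the span trend removed, 8 metabotropic receptors were lower at FDR and 5 were called (median -0.85). Whether either list fell beyond other genes of that span was not tested. AMPA and kainate subunits, which carry fast excitation, had 6 of 22 lower, 1 higher and a median of -0.04. With the span trend removed, 3 were lower and 10 higher at FDR, with a median of 0.18. Of 23 glutamate transporters, 13 were lower and 2 higher at FDR (median -0.54). That list had 21.7% called lower at a median span of 44460 bases, against 7.78% of all genes in that span decile. The astrocytic transporter *slc1a2.L* was at 278, 307, 307, 207 and 250.2 CPM in controls and 101, 199, 44.5, 89.9 and 93.3 CPM in CRISPants. Every CRISPant library lay below the controls (-1.37 ± 0.30, with -1.03 ± 0.25 for S), and both homeologs of *slc1a6* fell (-1.39 and -1.33).

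Many potassium and calcium channel genes fell, but these lists hold long genes. Of 78 voltage-gated potassium channel genes, 34 were lower and 4 higher at FDR, 12 by more than 2-fold (median -0.31). That list had 15.4% called lower, at a median span of 57150 bases. All genes of that span decile (42462 to 60487 bases) had 7.78% and a median of -0.06. *kcnd2*, an A-type channel gene, fell in both homeologs (-1.52 ± 0.37 for S and -1.27 ± 0.27 for L). The M-current gene *kcnq3.L* had -1.38 ± 0.35. The G-protein-gated channel *kcnj6.L* was at 4.88, 6.21, 5.84, 4.93 and 5.72 CPM in controls and 0.853, 3.21, 0.359, 2.51 and 1.53 CPM in CRISPants. Its groups did not overlap (-1.70 ± 0.41), nor did those of *kcnj6.S* (-1.22 ± 0.35). It stands in a list of 56 other potassium channel genes, of which 19 were lower and 5 higher at FDR and 5 were called lower (median -0.09, and 0.02 within replicates 4 and 5). That was 8.93% called lower at a median span of 47020 bases, in the same span decile as the voltage-gated potassium list. Of 47 genes listed as voltage-gated calcium channels, 18 were lower and 2 higher (median -0.26). They were led by *cacng8* (-1.78 for S, -1.72 for L), which was placed in this list by its symbol alone. The auxiliary subunit *cacnb4* followed (-1.57 for L, -1.38 for S). This list had 14.9% called lower, at a median span of 136500 bases. All genes of the longest span decile had 11.8% and a median of -0.19. Of 18 voltage-gated sodium channel genes, 4 were lower and 3 higher (median -0.03). The difference between these families was not tested.

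The release machinery fell in part. Of 117 synaptic vesicle and exocytosis genes, 50 were lower and 8 higher at FDR and 25 were called lower, while the median was -0.14. This list had 21.4% called lower, against 5.24% of all genes, at a median span of 64460 bases. All genes of that span decile (60506 to 98998 bases) had 9.1% and a median of -0.12. *sv2c*, a vesicle glycoprotein, fell in both homeologs without overlap (-1.59 ± 0.34 and -1.54 ± 0.34). The calcium sensors *syt10.L* (-1.82 ± 0.46), *doc2b.L* (-1.69 ± 0.42) and *syt5.S* (-1.58 ± 0.33) were called as well. Presynaptic *cnr1*, the cannabinoid receptor, was at 51.5, 56.2, 54.6, 35.6 and 46.5 CPM in controls and 13.4, 29.5, 6.31, 18 and 16.8 CPM in CRISPants for L. The groups were apart for L (-1.55 ± 0.31) and for S (-1.57 ± 0.32). Of 94 synaptic adhesion genes, 37 were lower and 4 higher, including *clstn2* (-1.58 for L, -1.20 for S) and *cntnap5* (-1.57 for L, -1.25 for S). That list had 9.57% called lower and a median of -0.16, at a median span of 109200 bases. All genes of the longest span decile had 11.8% and -0.19. Postsynaptic scaffolds had 20 lower and 7 higher of 64, with 2 called lower (3.12%, against 5.24% of all genes).

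Axon guidance and growth factor receptor genes were lower more often than higher, but these lists hold long genes. Of 44 netrin and Slit ligand and receptor genes, 20 were lower and none higher (median -0.26). In this list 15.9% were called lower, and the median span was 131000 bases. The longest span decile of all genes (from 99000 bases) had 11.8% called lower and a median of -0.19. The netrin receptor *dcc* fell in L (-1.62 ± 0.34) and S (-1.26 ± 0.35), and its co-receptor *unc5b* in L (-1.51 ± 0.37) and S (-1.37 ± 0.30). Of 54 semaphorin, plexin and neuropilin genes, 22 were lower and 1 higher, and ephrins and their receptors were more mixed, with 11 lower and 6 higher of 36. The semaphorin list had 11.1% called lower and a median of -0.20, at a median span of 93340 bases. All genes of that span decile (60506 to 98998 bases) had 9.1% and -0.12. Of 47 growth factor receptor tyrosine kinase genes, 29 were lower and 3 higher (median -0.49). There 19.1% were called lower, at a median span of 71520 bases, in the same decile. *igf1r* fell in both homeologs (-1.49 ± 0.32 and -1.33 ± 0.31), with overlapping groups.

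Thyroid hormone and monoamine and acetylcholine genes were lower in part. Thyroid hormone, which drives metamorphosis in frogs, is read by nuclear receptors after transport into cells. Of 18 genes on that list, 10 were lower and 1 higher at FDR and 5 were called lower (median -0.67). There 27.8% were called lower, at a median span of 87810 bases. All genes of that span decile (60506 to 98998 bases) had 9.1% and a median of -0.12. The receptor *thra.S* was called (-1.48 ± 0.51, FDR = 0.0382) and *thra.L* fell at FDR (-0.97 ± 0.30), and the coactivator *ncoa3.S* had -1.26 ± 0.33. Of 26 genes for monoamine and acetylcholine synthesis, 13 were lower and none higher (median -0.37). *chat.L*, which makes acetylcholine, was at 8.19, 8.64, 10.3, 8.30 and 8.35 CPM in controls and 3.63, 6.52, 2.51, 3.42 and 1.93 CPM in CRISPants. All CRISPant libraries were below the controls (-1.29 ± 0.26), as for *chat.S* (-1.30 ± 0.25). Of 57 neuropeptide and pituitary hormone genes, 3 were lower and 7 higher at FDR (median 0.05, turning to -0.02 when libraries were scaled by size alone). Clock output genes were also called, *dbp* in both homeologs (-1.79 and -1.58) and the repressor *nr1d2.L* (-1.56 ± 0.22), although only 11 of 39 clock genes were lower at FDR. The DNA demethylases *tet3* (-1.57 for L, -1.54 for S) and *tet2* (-1.44 for L, -1.09 for S) fell within a list of chromatin modifiers with 46 lower and 31 higher of 206 (median -0.02).

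Of 181 genes whose human counterparts cause DEE, 64 were lower and 14 higher at FDR and 27 were called lower (14.9%, against 5.24% of all genes), with a median of -0.11. Many of the genes above belong to this list, so it is no separate evidence. Cytoskeletal genes were read as lists of their own. Of 94 kinesin and cytoplasmic dynein genes, 22 were lower and 10 higher at FDR (median -0.04). There 6 were called lower (6.38%, against 5.24% of all genes). In that list, the axonal transport motor *kif1a* was at 236, 246, 238, 153 and 206 CPM in controls and 85.5, 170.1, 47.9, 101 and 83.4 CPM in CRISPants for L. CRISPant replicate 2 overlapped the lowest control, and L (-1.16 ± 0.27) and S (-1.26 ± 0.26) were both called. Of 68 tubulin, neurofilament and related genes, 14 were lower and 10 higher at FDR (median -0.07), with 3 called lower (4.41%). Among them *dcx*, a microtubule protein of migrating young neurons, fell in L (-1.62 ± 0.40) and S (-1.44 ± 0.34), again with overlap.

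Increases were broad but small and included many translation and mitochondrial genes. Of 156 cytosolic ribosomal protein genes, 152 were higher at FDR and none lower, with a median of 0.57 and no gene above 2-fold, and 128 had all CRISPant libraries above the controls. Within replicates 1 to 3 alone 154 were higher at FDR, and within replicates 4 and 5 alone 52 were. *rpl31.S* was at 319.7, 315, 321, 392 and 346 CPM in controls and 598, 443, 726, 476 and 587 CPM in CRISPants. All CRISPant libraries were above all controls (0.73 ± 0.12, FDR = 0.0078), and the same held for *rpl35a.S* (0.77 ± 0.18), *rpl37a.S* (0.72 ± 0.10) and *rps26.L* (0.71 ± 0.13). Ribosomal protein genes took 7.33, 7.38, 7.27, 8.94 and 7.91% of counts in the controls and 11.1, 9.12, 12.7, 9.77 and 11.3% in the CRISPants. The order of the CRISPant libraries by this share matched that by the decrease of the called lower genes at its ends, with replicate 3 highest and replicate 2 lowest. Ribosomal protein genes are short, with a median span of 6302 bases, and with the span trend removed 150 stayed higher at FDR with a median of 0.41.

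Mitochondrial ribosomal proteins (54 of 97 higher and none lower, median 0.29) and oxidative phosphorylation genes (91 of 159 higher and 3 lower, median 0.27) rose too. Examples were *mrpl57.S* (0.57 ± 0.11), *mrpl41.S* (0.56 ± 0.12), the complex I subunit *ndufb4.L* (0.55 ± 0.16) and the complex IV assembly factor *cox20.L* (0.52 ± 0.13). The lists had 55.7% and 57.2% higher at FDR, at median spans of 7369 and 7025 bases. All genes of that span decile (6126 to 9847 bases) had 34% higher and a median of 0.165. Of 84 initiation factor genes, 40 were higher and 1 lower, among them the eIF2B subunit *eif2b1.S* at 5.01, 3.99, 6.38, 3.88 and 5.63 CPM in controls and 7.68, 9.50, 10.2, 9.72 and 10 CPM in CRISPants, with no overlap (0.91 ± 0.15). That list had 47.6% higher and a median of 0.19, at a median span of 13260 bases. All genes of that span decile (9850 to 13681 bases) had 28.7% and 0.12. Whether these lists rose beyond other genes of their span was not tested. Of 54 aminoacyl-tRNA synthetase genes, 3 were lower and 4 higher.

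The 4 lists linked to stress each held genes moving in both directions. There were 5 lower and 5 higher of 35 amino acid stress (ATF4) target genes (median 0.01). Of 116 chaperone genes, 17 were lower and 19 higher, with 5 called lower (4.31%, against 5.24% of all genes). Of 78 proteasome genes, 4 were lower and 5 higher (median 0.06). Of 36 p53 target genes, 8 were lower and 8 higher, and 3 were called lower (8.33%, against 5.24% of all genes). The sign of these medians depended on the scaling. Scaled by library size alone, it turned negative for the ATF4, chaperone and proteasome lists and for the synthetases, and with the span trend removed it turned negative for all 4 stress lists. Proteasome genes then numbered 10 lower and 3 higher, and 14 lower and 1 higher when the replicate block was added.

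**Figure D5:**
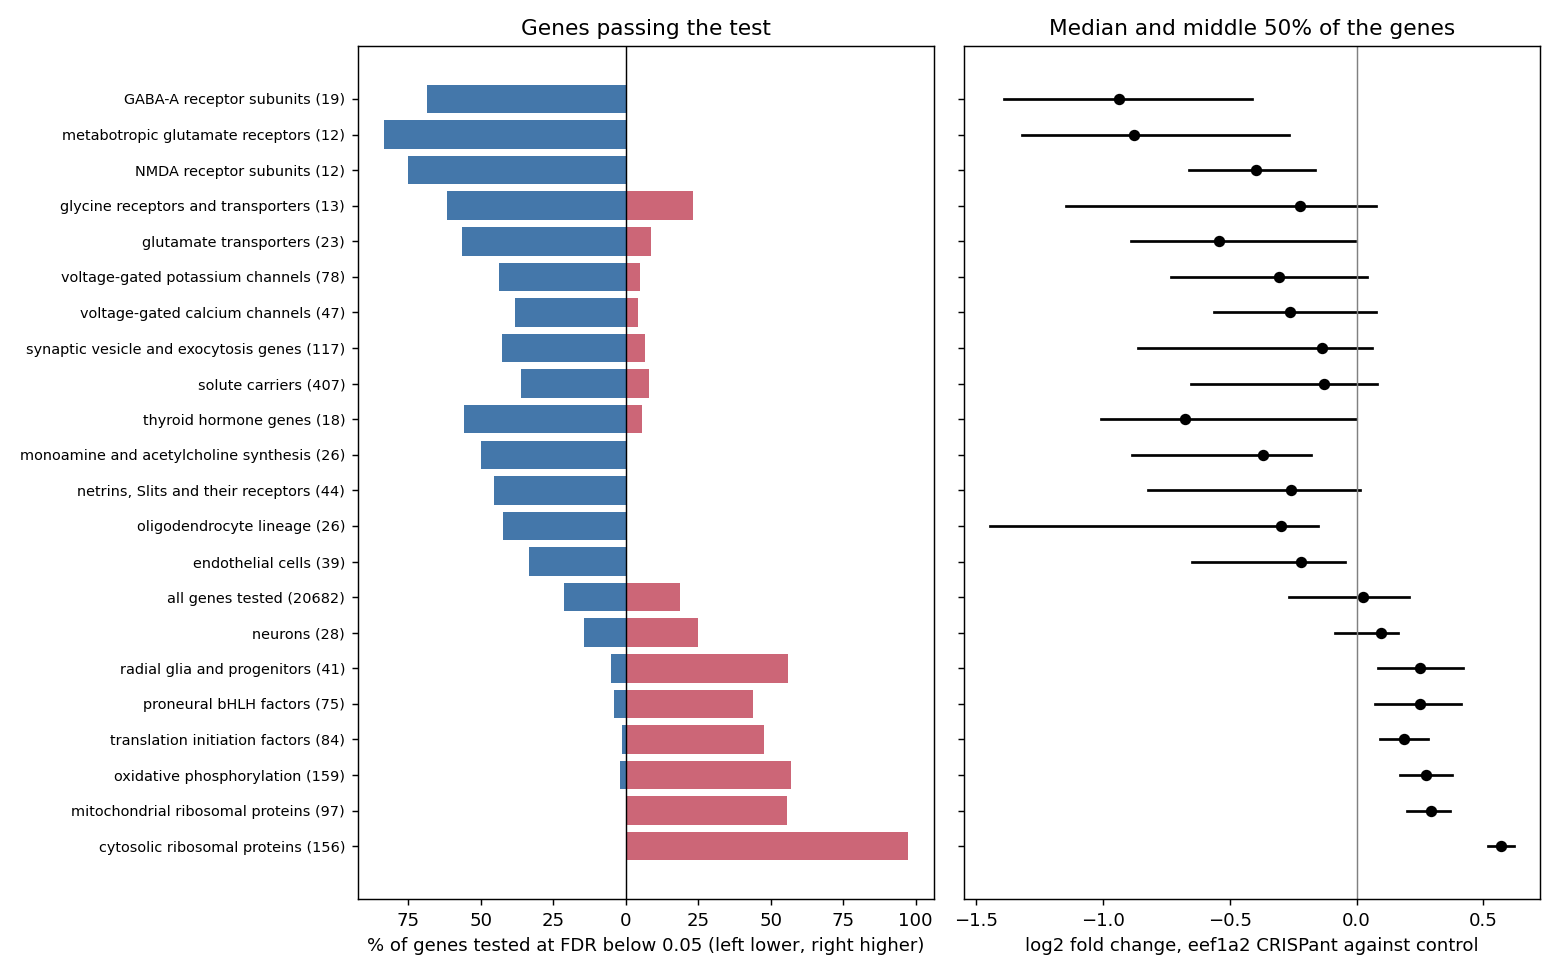
Families and pathways, with the number of genes tested in brackets. Left, percentage of genes at FDR below 0.05 and lower (blue, to the left) or higher (red, to the right) in *eef1a2* CRISPants. Right, median log2 fold change (point) and the middle 50% of genes (line). Of the lists drawn, GABA-A and metabotropic glutamate receptors have the lowest medians (-0.94 and -0.88) and cytosolic ribosomal proteins the highest (0.57), with all genes tested at 0.03.

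Many genes of early neurogenesis rose by small amounts, close to those of other short genes. Of 75 proneural and related bHLH factor genes, 33 were higher (44%) and 3 lower at FDR (median 0.25). These genes are short, with a median span of 2405 bases. In the shortest span decile of all genes (410 to 6125 bases), 39.1% were higher at FDR and the median was 0.22. Whether the list rose beyond other short genes was not tested. *neurog3.S* was at 1.20, 1.19, 1.23, 1.41 and 1.64 CPM in controls and 1.97, 2.38, 2.69, 2.84 and 1.98 CPM in CRISPants. All CRISPant libraries were above the controls for S (0.82 ± 0.16) and L (0.59 ± 0.16). The Notch effector *hes5.4* rose in L (0.71) and S (0.50), while its pathway list went the other way. Of 34 Notch pathway genes, 18 were lower and 1 higher at FDR and 4 were called lower (median -0.35). There 11.8% were called lower at a median span of 52000 bases, against 7.78% of all genes in that span decile. The bHLH gene *tcf4* fell instead (-0.89 ± 0.19 for L and -0.58 ± 0.10 for S).

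Markers of cell types gave a mixed picture, and their part in the results above was not tested. Of 28 neuronal marker genes, 4 were lower and 7 higher at FDR and none was called, and their summed level was 9684 to 10400 CPM in controls and 10310 to 10910 CPM in CRISPants, so the brain label held in every library. Of 41 radial glia and progenitor genes, 23 were higher and 2 lower, the latter being *nes.L* (-0.75 ± 0.21) and the glial glutamate transporter *slc1a3.L* (-0.74 ± 0.14). This list had 56.1% higher at FDR and a median of 0.25, at a median span of 2824 bases. The shortest span decile of all genes had 39.1% and 0.22. The summed progenitor markers overlapped between groups (3036 to 3399 CPM in controls and 3075 to 3467 CPM in CRISPants). DNA replication and mitosis genes changed in 13 of 95 cases (10 higher, 3 lower).

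Several myelin genes fell. Of 26 oligodendrocyte lineage genes, 11 were lower at FDR, 9 were called, none was higher and 15 did not pass (median -0.30). That was 42.3% lower at FDR and 34.6% called lower, against 21.4% and 5.24% of all genes. The summed level overlapped (591 to 929 CPM in controls and 583 to 729 CPM in CRISPants). The myelin glycoprotein *mag.L* was at 11.4, 15.1, 14.7, 14.8 and 16.1 CPM in controls and 4.40, 7.48, 2.85, 7.67 and 3.65 CPM in CRISPants. The groups did not overlap for L (-1.48 ± 0.25) or S (-1.66 ± 0.25), nor for *cnp.L* (-1.51 ± 0.30), *cnp.S* (-1.46 ± 0.27) and the myelin tight junction gene *cldn11.S* (-1.87 ± 0.30). Within replicates 1 to 3 and within replicates 4 and 5, 9 and 10 genes of this list were called lower, respectively.

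Some vessel genes fell as well. Of 39 endothelial genes, 13 were lower and none higher at FDR, 6 were called and 26 did not pass (median -0.22). That was 33.3% lower at FDR and 15.4% called lower, against 21.4% and 5.24% of all genes. Summed levels overlapped, at 377 to 471 CPM in controls and 324 to 457 CPM in CRISPants. Besides *kdrl.L* the called genes included the TGF-β co-receptor endoglin, with *eng.S* at 2.82, 2.17, 2.27, 2.34 and 3.37 CPM in controls and 0.533, 1.33, 0.18, 1.22 and 0.453 CPM in CRISPants and no overlap (-1.80 ± 0.39, with -1.65 ± 0.30 for *eng.L*). The junction genes *cdh5.S* (-1.61 ± 0.30), *esam.S* (-1.07 ± 0.22) and *cldn5.S* (-1.08 ± 0.26) were also called, the last with CRISPant replicate 4 inside the control range. Of 13 pericyte and smooth muscle genes 6 were lower, among them *pdgfrb.S* (-1.26 ± 0.21).

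The summed levels of markers from blood, muscle and meninges overlapped between the groups. Erythroid genes summed to 959 to 1236 CPM in controls and 835 to 1803 CPM in CRISPants, with 2 of 13 higher. Skeletal muscle genes summed to 80.4 to 108 CPM and 96.4 to 128 CPM, with 4 of 20 higher, and meningeal genes to 2631 to 3682 CPM and 2465 to 4378 CPM. Of 56 liver and pancreas genes only 9 were tested and 8 had no count in any of the 10 libraries, including *apob.L* and *prss1.L*. Of those 9, 3 were higher at FDR, *amy2a.L* and *cps1.S* among them as called genes, and 1 was lower (median 0.58, and -0.07 within replicates 4 and 5). Of 105 epidermal genes 25 were tested and 10 had no count, and the 2 called were the *krt12.5* homeologs. Microglial and leukocyte genes were scarce, at 61.2 to 70.9 CPM in controls and 67.4 to 82.1 CPM in CRISPants, with 4 lower and 1 higher of 15.

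No gene was found to differ between the *eef1a2* and the *ap3b2* CRISPants. The *ap3b2* CRISPants were compared with the same 5 controls, so the shifts from control in the edited groups are not independent. The 1083 genes called lower in *eef1a2* CRISPants had a median log2 fold change of -1.23 there, and 1081 of them that were tested had -1.18 in *ap3b2* CRISPants. In a direct comparison that leaves the controls out, 0 of 20584 genes (0%) differed between *eef1a2* and *ap3b2* CRISPants by edgeR's quasi-likelihood test at FDR below 0.05, with or without the fold requirement. At an unadjusted p below 0.05 there were 179 genes, where 1029 would be 5% of those tested, and DESeq2 likewise gave 0 at FDR and 228 unadjusted. The median direct difference over 1002 of the lower genes was -0.06. Side by side, *kdrl.L* had -2.21 ± 0.35 in *eef1a2* and -1.70 ± 0.37 in *ap3b2* CRISPants, *slc6a4.L* -2.13 ± 0.48 and -1.61 ± 0.33, *gabrb2.L* -1.72 ± 0.37 and -1.61 ± 0.32, and *hic2.S* 1.24 ± 0.14 and 1.25 ± 0.18. A difference shared by both edited groups cannot be told apart from one that set the control libraries apart. A gene that misses the threshold is not thereby shown to respond alike in the edited groups.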

How the data were processed

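Whole-brain poly(A) RNA was sequenced as stranded libraries. Per the labels and the study's methods, the authors aligned reads with STAR to the *X. laevis* v10.1 genome and counted pairs per gene with featureCounts, reverse stranded, and deposited raw counts. They also deposited log2 CPM values from edgeR. That scaling was recomputed here from the counts of all 14 libraries to give the CPM printed. A gene at or under 1 CPM in at least 4 libraries was dropped, a rule stated in the study's methods and applied here to the 10 libraries. This took out 118 genes with CPM above 1 in all controls. Differences were tested in R 4.3.3 with edgeR 4.0.16 (TMM scaling, quasi-likelihood F test, Benjamini-Hochberg FDR), tested on simulated data, with limma 3.58.1 and DESeq2 1.42.0 as alternatives. FDR values are over all genes tested, and log2 fold changes are *eef1a2* CRISPant minus control with SE. Spans and positions are from RefSeq genes of Xenopus_laevis_v10.1, matched by symbol for 17357 of 20682 genes. Libraries are separate pools of tadpoles from the same 2 females. Genes named were the elongation factors, the 12 largest falls and the rises with at least 10 counts and no overlap, up to 4 members of each list, and homeologs. *krt12.5*, *cps1* and *fosb* outside the first rules came from the lists. The comparison and the lists were chosen with earlier results of these data known. Some lists hold a few genes matched by symbol alone. A few genes that the naming rule selects are not reported here.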

Additional observations from a re-analysis of the deposited data

Results flagged for a closer look

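Within each group of 5 libraries, a value was singled out where the gap between the highest or lowest library and its nearest neighbour took an unusually large part of the group's range (Dixon's ratio above 0.71). Of 326 such tests, 28 met this, and chance alone singles out about 1 in 20. Most were control replicate 4, which lay toward the CRISPants. It was the lowest control for *bach2.L* (6.405 CPM), *bach2.S* (12.73), *gabra2.L* (25.79), *gabrb2.L* (18.6), *gabrb2.S* (7.311), *glra3.L* (10.09), *kcnj3.S* (7.816), *cacnb4.L* (23.87), *cacng8.L* (12.64), *cacng8.S* (8.153), *syt5.S* (10.01), *unc5b.S* (6.868), *igf1r.S* (14.35) and *tet2.S* (23.43). It was the highest control for *eef1g.L* (1674 CPM), *eef2.L* (3323) and *eif3k.S* (150.6).

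CRISPant replicate 2 stood above the other CRISPants, toward the controls, for *klf12.L* (7.43 CPM), *cacng8.S* (9.311), *thra.S* (3.643) and *kif1a.S* (146.4). CRISPant replicate 4 did so for *tgfbr3.L* (4.81 CPM) and *cldn5.S* (17.47), and it was the lowest CRISPant for *ikbke.L* (1.013). CRISPant replicate 1 was the lowest for *eif2b1.S* (7.681 CPM). Single control libraries stood high for *pdgfra.S* (14.38 CPM, replicate 5), *chat.L* (10.27, replicate 3) and *cox20.L* (9.123, replicate 3).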

How the results depend on the processing

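All 1083 genes called lower had a negative fold change under every alternative fitted, but fewer were called again with fewer libraries. The alternatives used the libraries that had chosen these genes, so the shared sign is no separate evidence. Of the 1083 genes, 243 were called lower within replicates 1 to 3 and 649 within replicates 4 and 5. Among 160 genes checked by name, 87 no longer passed the FDR threshold within replicates 1 to 3 and 36 within replicates 4 and 5. Leaving out single libraries gave 706 (without CRISPant replicate 3) to 1716 (without CRISPant replicate 2) genes called lower and 13 to 34 called higher (34 without CRISPant replicate 4), with 3381 to 4979 lower and 2586 to 4687 higher at FDR alone, and a PC1 difference of 162.4 to 183.5. Scaling by library size alone left 2322 genes higher at FDR. Without the filter on low counts 118 genes were called higher, and limma voom with library quality weights gave 30. Tested against a fold of 2 (glmTreat), 0 genes passed in either direction, at FDR alone or with the fold rule, and 375 had an unadjusted p below 0.05, so no single gene is shown to exceed 2-fold. Replicates 1 to 3 alone gave 406 called lower, 58 higher, and 1169 and 2012 at FDR alone, and replicates 4 and 5 alone gave 2418 and 402 at FDR alone. Leaving out replicate 4 of both groups, chosen after seeing the data, gave 1424 lower and 30 higher. With the replicate number as a block, 1258 genes were called lower and 16 higher. The numbers were not taken to pair the libraries, since correlations of same-numbered libraries ran from -0.281 to 0.373 and not every library matched its own number best. A term for replicates 1 to 3 against 4 and 5 gave 1079 called lower and 19 higher. DESeq2 gave 1116 lower and 18 higher. The direct comparison with *ap3b2* CRISPants gave 0 genes under each alternative, replicate block included. Genes under about 1 CPM were not tested, and pools of 6 brains hide variation between animals.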
